A study of Mus musculus with 12 samples.

Results

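The genes described here are 49 mouse genes of mitosis and spindle assembly, taken from a fixed list of symbols that covers the kinases, checkpoint proteins, kinetochore and centromere proteins, motors, cytokinesis proteins and destruction machinery of dividing cells. All 49 were found among the 26608 genes listed, and all 49 were among the 16035 genes with enough reads to be tested. Their levels were measured by bulk RNA sequencing of CD4+ T cells that lacked the YFP(FOXP3) signal, sorted from spleen pooled with lymph nodes (cervical and inguinal) of mice aged 14 weeks. The 3 groups held 4 mice each, with 1 library per mouse. WT mice were Foxp3Cre WT and carried the Cre without floxed alleles, whereas DKO-moderate and DKO-severe mice were Foxp3-Cre Tet2/3 fl/fl, so that Foxp3-Cre was shared by all groups. In the DKO mice, Tet2 and Tet3, which encode enzymes that oxidise methylated cytosine in DNA, are deleted in cells that express or have expressed Foxp3, the factor that defines regulatory T (Treg) cells. The sorted cells were FOXP3-negative and therefore mixed: former Treg cells with the deletion and conventional CD4+ T cells cannot be told apart in these libraries, and the study notes that Foxp3-Cre can be active in other cells. The DKO mice had been divided into moderate and severe by the study on the number of cells in spleen and peripheral lymph nodes, so this division is itself a measure of disease and not a treatment.

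In mitosis, a cyclin-dependent kinase bound to a B-type cyclin starts chromosome condensation and spindle assembly, and further kinases, kinetochore proteins and microtubule motors attach and align the chromosomes. A checkpoint holds the anaphase-promoting complex inactive until every kinetochore is attached, after which securin and cyclin B are destroyed, the sister chromatids separate and the cell is cleaved. Most of these genes are transcribed in G2 and M phase and are kept low in resting cells, and naive T cells are resting cells that begin to divide after antigen recognition.

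Many genes of this kind are known to be controlled through the cell cycle genes homology region (CHR), a short promoter element with the letters TTTGAA, often together with CCAAT boxes. Both were therefore searched for, on both strands, in the RefSeq promoter windows of GRCm38.p6, which reach from 250 bases before to 50 bases after the annotated start of a gene. A match was counted whether or not it overlapped one of the other element. A window was at hand for 40 of the 49 genes. TTTGAA was present in 30 of these 40 (75%), against 20.2% of 27025 genes with a window, and CCAAT in 30 of 40 (75%), against 41.1%. Within 50 bases of the start, TTTGAA was found in 27 of 40 (67.5%) and in 5.72% of all genes. A CCAAT box together with TTTGAA within 50 bases of the start occurred in 24 of 40 (60%) and in 2.39% of all genes. The following windows show 50 bases around that match for 8 members, chosen because they span the smallest changes in expression (Cenpa and Kif23), the larger ones (Cdk1 and Kif15) and genes between them. Capitals mark TTTGAA, or TTCAAA where the match lies on the opposite strand, and each line reads 5′ to 3′ along the strand of the gene.
Cdk1 (chr10:69352900-69352949, minus strand): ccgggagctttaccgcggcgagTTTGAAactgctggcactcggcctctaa
Ccnb2 (chr9:70421523-70421572, minus strand): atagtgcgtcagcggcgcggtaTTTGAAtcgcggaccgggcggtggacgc
Kif15 (chr9:122951040-122951089, plus strand): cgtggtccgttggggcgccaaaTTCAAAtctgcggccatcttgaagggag
Kif23 (chr9:61946770-61946819, minus strand): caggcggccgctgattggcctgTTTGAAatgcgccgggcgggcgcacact
Cenpa (chr5:30666880-30666929, plus strand): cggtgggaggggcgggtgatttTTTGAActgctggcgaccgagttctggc
Racgap1 (chr15:99651624-99651673, minus strand): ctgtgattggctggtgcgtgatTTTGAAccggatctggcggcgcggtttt
Cdc20 (chr4:118437334-118437383, minus strand): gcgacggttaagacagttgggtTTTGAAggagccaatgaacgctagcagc
Espl1 (chr15:102296244-102296293, plus strand): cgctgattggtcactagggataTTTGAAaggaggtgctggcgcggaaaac
In these 8 windows the match began between 27 bases before the start (Espl1) and 17 bases after it (Cenpa), and only that of Kif15 lay on the strand opposite to the gene. Besides the match shown, Cdk1, Ccnb2 and Kif15 held a further TTTGAA in their window. In lower case, CCAAT stands just downstream of the match in Cdc20, and its reverse complement upstream of it in Kif23, Racgap1 and Espl1. No TTTGAA was in the windows of Ccnb1, Nek2, Melk, Bub1, Mad2l1, Birc5, Cenpe, Nuf2, Nusap1 and Mybl2, and in those of Kif2c, Ckap2 and Mki67 it lay farther from the start. A match is a run of letters and not a measured binding site.

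The libraries held 29254260 to 42133536 reads on genes, and 18.53 to 23.73% of the reads counted for a library were assigned to no gene. T cell markers summed to between 4226 and 5263 CPM in every library, where CPM are counts scaled to library size with TMM factors. Single markers shifted within that sum. Of the 8, 2 were higher and 3 lower in DKO-severe than in WT (edgeR), with log2 fold changes from -1.10 to 0.47. Over all genes tested, 26.6% were higher and 25.9% lower. Tet2 was at 52.0 ± 8.05 CPM (SD, n = 4) in WT, 50.3 ± 10.5 in the DKO-moderate group and 60.7 ± 4.47 in the DKO-severe group. Tet3 was at 195 ± 19.6, 138 ± 45.5 and 96.0 ± 6.37 CPM, with DKO-severe below WT (edgeR, adjusted p = 0.000858). Foxp3 stood at or below 3.10 CPM in every library, at 1.67 ± 0.982, 0.955 ± 0.581 and 0.383 ± 0.330 CPM in the 3 groups. For Foxp3 too, DKO-severe was below WT (edgeR, adjusted p = 0.0205). A total over the whole gene includes exons outside the floxed ones and is no test of the deletion. Libraries 1 and 2 of DKO-severe stood apart by their neutrophil markers, which summed to 2247 and 825 CPM there and to between 0 and 23.1 CPM in the other 10 libraries. WT 3 stood apart by B cell markers at 212 CPM, against 6.81 to 15.2 CPM in the other WT libraries. Results are therefore given with and without these libraries. The labels give no sex, and Y-linked genes summed to between 0 and 0.571 CPM in WT 2, DKO-moderate 2, DKO-moderate 4 and DKO-severe 3 and to between 369.8 and 555.8 CPM in the other libraries, so each group mixed mice with and without these transcripts.

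CD4+ YFP(FOXP3)- T cells of DKO-severe mice held more RNA of all 49 genes than those of WT mice (edgeR quasi-likelihood test, Benjamini-Hochberg adjusted p between 3.47e-06 and 0.000913), where 26.6% of all 16035 genes tested were higher. In each of the 49, every DKO-severe library lay above every WT library, which held for 24.6% of all genes tested. The median log2 fold change of the 49 was 3.07, with a range from 1.26 for Cenpa to 4.14 for Pbk, against a median of -0.01 over all genes tested. DKO-moderate cells lay between. There, 46 of 49 were higher than in WT (12.3% of all genes tested), with a median log2 fold change of 1.57 against 0 over all genes. The remaining 3, Mad2l1, Ndc80 and Kif23, did not pass the threshold of 0.05. The call for Mad2l1 depended on the processing, since it passed in 10 alternatives, among them DESeq2, with adjusted p-values of 0.0155 to 0.0476. Of the genes that passed, Anln lost its DKO-moderate call in 9 alternatives (adjusted p 0.0521 to 0.103) and Aurka in 8 (0.0546 to 0.105). Every DKO-moderate library lay above every WT library for 47 genes, against 14.6% of all genes tested, with Kif23 and Anln as the exceptions. Both comparisons use the same WT libraries. As these are bulk samples, more dividing cells and more RNA of these genes per dividing cell cannot be told apart.

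**Figure D1:**
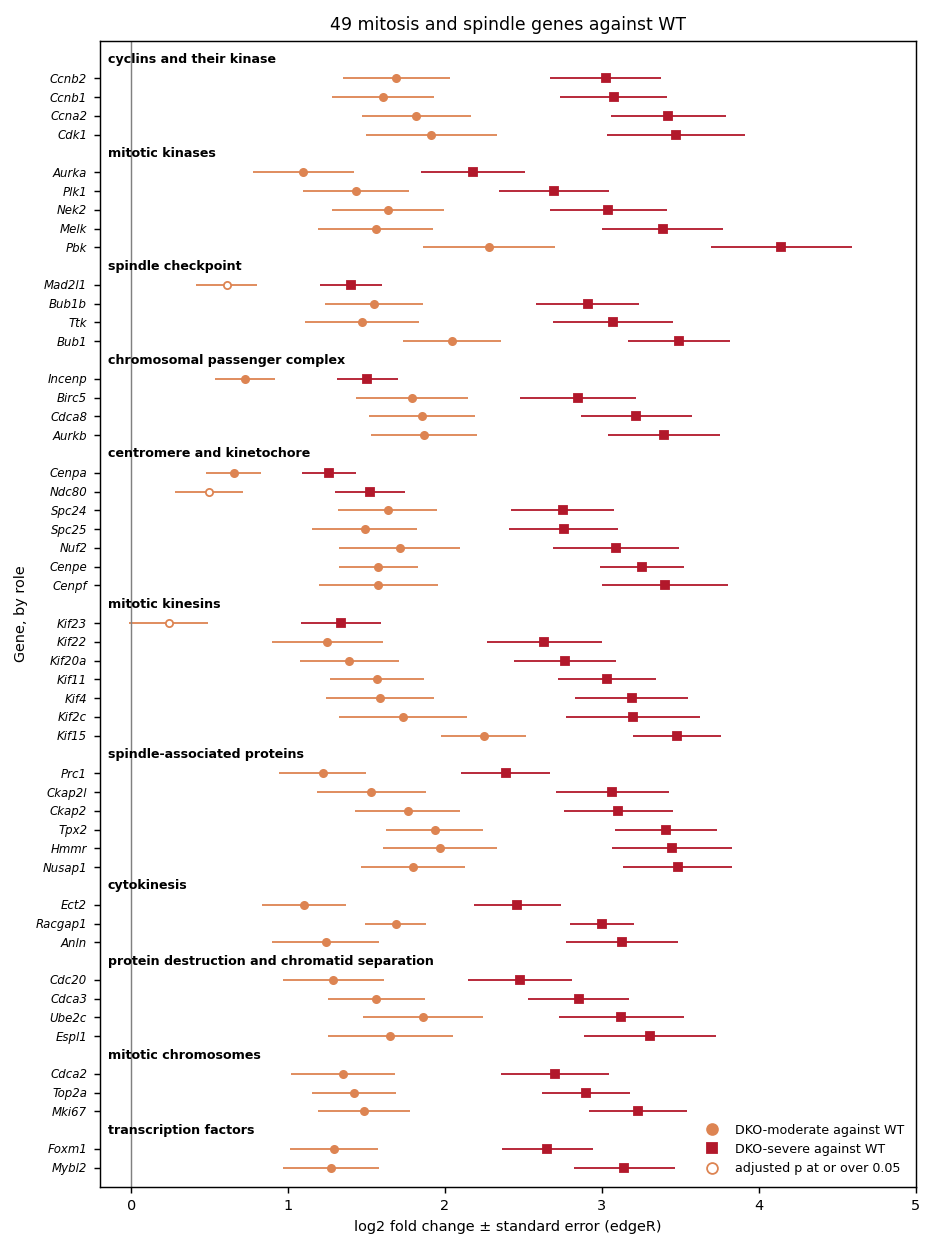
Log2 fold change against WT with its standard error (horizontal axis, edgeR) for each of the 49 genes, grouped by role (vertical axis), with circles for DKO-moderate and squares for DKO-severe and open symbols where the adjusted p was 0.05 or more. The DKO-severe values run from 1.26 to 4.14 and the DKO-moderate values from 0.24 to 2.28, and the only open symbols are Mad2l1, Ndc80 and Kif23 in DKO-moderate.

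The first group is the engine of mitotic entry, the cyclins Ccna2, Ccnb1 and Ccnb2 and their kinase Cdk1. Gene positions here and in what follows are those of GENCODE vM21 on GRCm38. Ccnb1 (chr13:100778650-100786570, minus strand), cyclin B1, was at 4.68, 4, 4.63 and 6.7 CPM in WT 1 to 4, 9.65, 14.5, 13.7 and 23.2 in DKO-moderate 1 to 4, and 46.4, 23.5, 34.4 and 64.6 in DKO-severe 1 to 4. Cdk1 (chr10:69335146-69352938, minus strand), the kinase itself, was at 3.13, 2.55, 3.22 and 5.82 CPM in WT 1 to 4, 7.87, 10.7, 10.7 and 26.4 in DKO-moderate 1 to 4, and 45.4, 22.6, 35.8 and 60.2 in DKO-severe 1 to 4. Neither gene overlapped between WT and either DKO group, whereas DKO-severe 2, the lowest of its group, fell below DKO-moderate 4 for Cdk1. In DKO-severe against WT, the log2 fold change was 3.08 ± 0.34 (SE, adjusted p = 2.58e-05) for Ccnb1 and 3.47 ± 0.44 (SE, adjusted p = 6.01e-05) for Cdk1 in edgeR. In DKO-moderate it was 1.61 ± 0.33 (SE, adjusted p = 0.00601) for Ccnb1 and 1.91 ± 0.42 (SE, adjusted p = 0.00915) for Cdk1. Ccnb2 (chr9:70407692-70421547, minus strand), cyclin B2, was at 5.26, 4.71, 6.41 and 10.5 CPM in WT 1 to 4, 16.7, 16.5, 21 and 32.6 in DKO-moderate 1 to 4, and 62.6, 30.9, 45.3 and 80.1 in DKO-severe 1 to 4. It had the smallest change of the 4, 3.02 ± 0.35 (SE, adjusted p = 3.69e-05) in DKO-severe. Cyclin A2, encoded by Ccna2, rose from 9.74 ± 2.85 CPM (SD, n = 4) in WT through 34.4 ± 12.2 (DKO-moderate) to 105 ± 47.8 (DKO-severe), with log2 fold changes of 3.42 ± 0.37 and 1.82 ± 0.35 for DKO-severe and DKO-moderate.

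The 5 mitotic kinases outside the checkpoint, Plk1, Aurka, Nek2, Melk and Pbk, were all higher in both DKO groups. Pbk (chr14:65805837-65817822, plus strand), a kinase of dividing cells also known as TOPK, was at 0.747, 1.1, 1.38 and 1.89 CPM in WT 1 to 4, 3.75, 4.73, 6.09 and 10.3 in DKO-moderate 1 to 4, and 23, 11.1, 19.8 and 36.6 in DKO-severe 1 to 4. It was the gene with the largest change of the 49 in both DKO groups, and its groups did not overlap. Its log2 fold change was 4.14 ± 0.45 (SE, adjusted p = 2.26e-05) in DKO-severe and 2.28 ± 0.42 (SE, adjusted p = 0.00375) in DKO-moderate, with as few as 26 reads in a WT library. Aurka (chr2:172356190-172370535, minus strand), the Aurora kinase of the spindle poles, was at 4.05, 4.48, 4.54 and 6.2 CPM in WT 1 to 4, 7.76, 7.19, 9.66 and 16.6 in DKO-moderate 1 to 4, and 23.1, 12.1, 19.2 and 32.8 in DKO-severe 1 to 4. Its rise was the smallest among the kinases, 2.18 ± 0.33 (SE, adjusted p = 0.000207) in DKO-severe and 1.10 ± 0.32 (SE, adjusted p = 0.0358) in DKO-moderate, and DKO-severe 2 again lay below DKO-moderate 4. For Plk1, the Polo-like kinase that acts from mitotic entry to cytokinesis, the DKO-severe change was 2.70 ± 0.35, and for Nek2, which separates the centrosomes, it was 3.04 ± 0.37. Melk reached 3.39 ± 0.39.

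Among the 4 genes of the spindle checkpoint, Bub1 and Mad2l1 took the ends of the range. Bub1 (chr2:127801122-127831865, minus strand), a kinase of unattached kinetochores, was at 1.87, 2, 2.3 and 3.14 CPM in WT 1 to 4, 7.97, 8.54, 9.44 and 12.5 in DKO-moderate 1 to 4, and 24.4, 13.6, 24.5 and 42.4 in DKO-severe 1 to 4. The 3 groups were fully separate for Bub1, with every DKO-moderate library between the WT and the DKO-severe ones. Its log2 fold changes were 3.49 ± 0.33 (SE, adjusted p = 1.07e-05) in DKO-severe and 2.04 ± 0.31 (SE, adjusted p = 0.00126) in DKO-moderate. Mad2l1 (chr6:66535390-66547220, plus strand), which encodes the checkpoint protein MAD2 that inhibits CDC20, was at 15.7, 15.7, 15.1 and 18.3 CPM in WT 1 to 4, 21.7, 22.7, 23.2 and 31.1 in DKO-moderate 1 to 4, and 47.1, 28.4, 37 and 58.4 in DKO-severe 1 to 4. The 4 WT libraries lay close together for Mad2l1, below every DKO library. Its log2 fold change was 1.40 ± 0.20 (SE, adjusted p = 0.000129) in DKO-severe and 0.61 ± 0.20 (SE, adjusted p = 0.052) in DKO-moderate, the latter not past the threshold. Bub1b, which encodes the checkpoint protein BUBR1, and the kinase gene Ttk had DKO-severe changes of 2.91 ± 0.33 and 3.07 ± 0.38.

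The chromosomal passenger complex corrects faulty attachments and later directs cytokinesis, and its 4 genes had DKO-severe log2 fold changes from 1.51 to 3.40. Aurkb (chr11:69045647-69051664, plus strand), its kinase, was at 3.19, 2.19, 3.74 and 4.29 CPM in WT 1 to 4, 8.16, 10, 10.9 and 20 in DKO-moderate 1 to 4, and 37.7, 20.8, 30.6 and 52.5 in DKO-severe 1 to 4. Incenp (chr19:9872296-9899551, minus strand), the scaffold that holds the complex together, was at 22.5, 23.5, 25.1 and 29.5 CPM in WT 1 to 4, 33.9, 34.9, 41.4 and 56.5 in DKO-moderate 1 to 4, and 74.5, 51.6, 67.2 and 92.4 in DKO-severe 1 to 4. Both were without overlap between WT and either DKO group. The DKO-severe log2 fold change was 3.40 ± 0.35 (SE, adjusted p = 1.84e-05) for Aurkb but 1.51 ± 0.19 (SE, adjusted p = 6.94e-05) for Incenp. In DKO-moderate it was 1.87 ± 0.34 (SE, adjusted p = 0.00336) for Aurkb and 0.73 ± 0.19 (SE, adjusted p = 0.0223) for Incenp. Birc5 (survivin) and Cdca8 (borealin), the other subunits, had DKO-severe changes of 2.85 ± 0.37 and 3.22 ± 0.35.

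The 7 centromere and kinetochore genes ranged from 1.26 to 3.40. Cenpa (chr5:30666777-30674830, plus strand), the histone H3 variant that marks centromeres, was at 26.9, 27.7, 25.7 and 32.2 CPM in WT 1 to 4, 39.1, 43.3, 38.2 and 56.4 in DKO-moderate 1 to 4, and 76.2, 50.4, 57.6 and 85.6 in DKO-severe 1 to 4. All DKO libraries lay above the WT ones, and its DKO-severe change of 1.26 ± 0.17 (SE, adjusted p = 0.000108) was the smallest of the 49. Cenpe (chr3:135212537-135273611, plus strand), the kinetochore motor that brings chromosomes to the spindle equator, was at 4.6, 4.74, 5.43 and 6.42 CPM in WT 1 to 4, 13.4, 13.3, 18.8 and 17.8 in DKO-moderate 1 to 4, and 48.9, 31.6, 42 and 80.1 in DKO-severe 1 to 4. Cenpf (chr1:189640606-189688086, minus strand), a large protein of the outer kinetochore, was at 3.1, 2.84, 4.83 and 7.08 CPM in WT 1 to 4, 10.4, 11.3, 15.6 and 16.1 in DKO-moderate 1 to 4, and 46.2, 23.7, 36.8 and 82.8 in DKO-severe 1 to 4. For both, the 3 groups were separate. In DKO-severe the log2 fold change was 3.26 ± 0.27 (SE, adjusted p = 6.47e-06) for Cenpe and 3.40 ± 0.40 (SE, adjusted p = 3.82e-05) for Cenpf, and in DKO-moderate 1.58 ± 0.25 (SE, adjusted p = 0.00169) for Cenpe and 1.57 ± 0.38 (SE, adjusted p = 0.0145) for Cenpf. The NDC80 complex, which binds microtubules, is encoded by Ndc80, Nuf2, Spc24 and Spc25. Ndc80 had a log2 fold change of 1.52 ± 0.22 (SE, adjusted p = 0.00016) in DKO-severe and of 0.50 ± 0.22 (SE, adjusted p = 0.14) in DKO-moderate, from 10.2 ± 0.969 CPM (SD, n = 4) in WT through 14.4 ± 3.29 to 29.4 ± 9.72. Nuf2, Spc24 and Spc25 started from 2.78 ± 0.732, 2.20 ± 0.383 and 2.11 ± 0.369 CPM in WT, and their DKO-severe changes were 3.09 ± 0.40, 2.75 ± 0.33 and 2.76 ± 0.35.

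Of the 7 mitotic kinesins, Kif15 and Kif23 were at the ends. Kif15 (chr9:122951046-123018733, plus strand), a motor that helps to keep the spindle poles apart, was at 4.6, 2.74, 4.25 and 6.81 CPM in WT 1 to 4, 19.1, 19.3, 21.9 and 27.2 in DKO-moderate 1 to 4, and 58.2, 32.7, 50.2 and 64.5 in DKO-severe 1 to 4. The 3 groups did not overlap for Kif15, and its DKO-moderate change, 2.25 ± 0.27 (SE, adjusted p = 0.000343), was the highest of the 49 as a share (64.6%) of the DKO-severe one, 3.48 ± 0.28 (SE, adjusted p = 5.66e-06). Kif23 (chr9:61915905-61946774, minus strand), the motor subunit of the centralspindlin complex in the midzone of the dividing cell, was at 15.7, 14, 16.6 and 17 CPM in WT 1 to 4, 16.7, 14.9, 19.1 and 24 in DKO-moderate 1 to 4, and 41.3, 22.9, 33.7 and 62 in DKO-severe 1 to 4. In this gene, DKO-moderate 1 and DKO-moderate 2 lay within the range of the WT libraries and DKO-severe 2 below DKO-moderate 4. Its log2 fold change was 1.34 ± 0.25 (SE, adjusted p = 0.000913) in DKO-severe and 0.24 ± 0.25 (SE, adjusted p = 0.541) in DKO-moderate, the smallest of all 49 in the latter. Kif11, Kif20a, Kif22, Kif2c and Kif4 changed by between 2.63 (Kif22) and 3.20 (Kif2c) in DKO-severe, and all 5 were higher in DKO-moderate. Kif4 has a near copy with its own row in the files, Kif4-ps, so reads that fit both were not counted for either.

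**Figure D2:**
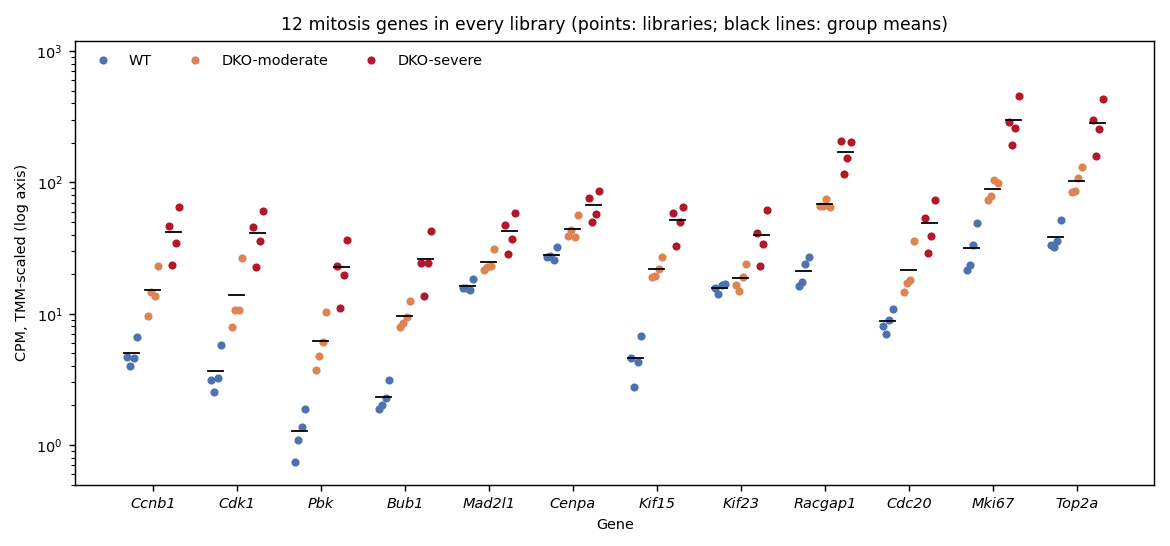
CPM in each library (vertical log axis, TMM-scaled) for 12 of the genes (horizontal axis), with 1 point per library in WT, DKO-moderate and DKO-severe and a black line at each group mean. Mad2l1, Cenpa and Kif23 have smaller DKO-severe changes than the others, whereas Pbk climbs from a WT mean of 1.28 to a DKO-severe mean of 22.6 CPM.

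The spindle-associated proteins organise microtubules rather than walk along them. Nusap1 (chr2:119618298-119651244, plus strand), which bundles microtubules at chromosomes, was at 3.56, 3.61, 4.34 and 7.52 CPM in WT 1 to 4, 13.1, 14, 16.8 and 22.4 in DKO-moderate 1 to 4, and 55.9, 28.4, 46.9 and 82 in DKO-severe 1 to 4. Prc1 (chr7:80294450-80316259, plus strand), which crosslinks the antiparallel microtubules of the midzone, was at 5.49, 6.19, 7.62 and 10 CPM in WT 1 to 4, 14.5, 14.1, 18.1 and 21.6 in DKO-moderate 1 to 4, and 37.5, 23, 33.8 and 58.9 in DKO-severe 1 to 4. No library overlapped between any 2 groups in these 2 genes. In DKO-severe the log2 fold change was 3.48 ± 0.35 (SE, adjusted p = 1.51e-05) for Nusap1 and 2.39 ± 0.28 (SE, adjusted p = 3.97e-05) for Prc1, and in DKO-moderate 1.80 ± 0.33 (SE, adjusted p = 0.00369) and 1.22 ± 0.27 (SE, adjusted p = 0.0105). Tpx2, an activator of Aurora A, Hmmr, Ckap2 and Ckap2l changed by 3.41 ± 0.32, 3.45 ± 0.38, 3.11 ± 0.35 and 3.07 ± 0.36 in DKO-severe.

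All 3 cytokinesis genes were higher in both DKO groups and separate between DKO-severe and DKO-moderate. Racgap1 (chr15:99620496-99651656, minus strand), the partner of KIF23 in centralspindlin, was at 16.2, 17.4, 24.1 and 26.9 CPM in WT 1 to 4, 65.7, 66, 74.7 and 65.5 in DKO-moderate 1 to 4, and 206, 117, 153 and 202 in DKO-severe 1 to 4. It had the smallest adjusted p of the 49 in each comparison, with log2 fold changes of 3.00 ± 0.21 (SE, adjusted p = 3.47e-06) in DKO-severe and 1.68 ± 0.20 (SE, adjusted p = 0.000342) in DKO-moderate, and its 4 DKO-moderate libraries were close together. Racgap1 passed the threshold in DKO-moderate and its partner Kif23 did not, and the difference between the genes was not tested. Ect2 (chr3:27097222-27153878, minus strand), the RhoA exchange factor that starts furrow formation, was at 4.45, 6.1, 6.07 and 7.3 CPM in WT 1 to 4, 11.8, 10.4, 14.5 and 14.6 in DKO-moderate 1 to 4, and 32.5, 18.9, 28 and 52.4 in DKO-severe 1 to 4. Anln (chr9:22332012-22389188, minus strand), anillin, a scaffold of the contractile ring, was at 1.44, 1.45, 1.7 and 2.57 CPM in WT 1 to 4, 2.31, 4.19, 4.42 and 6.01 in DKO-moderate 1 to 4, and 17.4, 9.53, 12.5 and 23.3 in DKO-severe 1 to 4. DKO-moderate 1 was inside the WT range for Anln, below WT 4. In DKO-severe the change was 2.46 ± 0.28 (SE, adjusted p = 3.04e-05) for Ect2 and 3.13 ± 0.36 (SE, adjusted p = 3.28e-05) for Anln, and in DKO-moderate 1.10 ± 0.27 (SE, adjusted p = 0.0157) and 1.24 ± 0.34 (SE, adjusted p = 0.0268).

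Protein destruction and chromatid separation were represented by Cdc20, Ube2c, Espl1 and Cdca3. Cdc20 (chr4:118432901-118437352, minus strand), the activator of the anaphase-promoting complex that the checkpoint blocks, was at 8.05, 7.07, 9.03 and 10.9 CPM in WT 1 to 4, 14.6, 17.1, 17.9 and 35.9 in DKO-moderate 1 to 4, and 53.7, 29.2, 38.9 and 73.8 in DKO-severe 1 to 4. Espl1 (chr15:102296266-102324357, plus strand), separase, the protease that cuts cohesin, was at 3.07, 1.42, 2.56 and 5.03 CPM in WT 1 to 4, 6.22, 7.85, 11 and 13.1 in DKO-moderate 1 to 4, and 32.9, 16.3, 24.1 and 46.7 in DKO-severe 1 to 4. DKO-moderate 4 stood well above the rest of its group for Cdc20 and above DKO-severe 2. In DKO-severe the log2 fold change was 2.48 ± 0.33 (SE, adjusted p = 8.98e-05) for Cdc20 and 3.31 ± 0.42 (SE, adjusted p = 6.11e-05) for Espl1, and in DKO-moderate 1.29 ± 0.32 (SE, adjusted p = 0.0175) and 1.65 ± 0.40 (SE, adjusted p = 0.0147). Ube2c, the ubiquitin-conjugating enzyme of the anaphase-promoting complex, rose by 3.12 ± 0.40 and Cdca3 by 2.85 ± 0.32 in DKO-severe.

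The genes of mitotic chromosomes include Ki-67, the usual stain for proliferating cells. Mki67 (chr7:135689784-135716361, minus strand), whose product Ki-67 coats mitotic chromosomes, was at 21.6, 23.3, 33.4 and 49.1 CPM in WT 1 to 4, 73.1, 78.4, 105 and 99.6 in DKO-moderate 1 to 4, and 289, 194, 258 and 457 in DKO-severe 1 to 4. Top2a (chr11:98992943-99024189, minus strand), the topoisomerase that untangles sister chromatids, was at 33.4, 32.2, 36 and 51.4 CPM in WT 1 to 4, 84.2, 85.5, 108 and 131 in DKO-moderate 1 to 4, and 298, 158, 254 and 431 in DKO-severe 1 to 4. Cdca2 (chr14:67676331-67715841, minus strand), which recruits a phosphatase to chromosomes at mitotic exit, was at 2.73, 2.23, 3.54 and 4.15 CPM in WT 1 to 4, 5.79, 6.02, 9.51 and 10.9 in DKO-moderate 1 to 4, and 21.5, 11.4, 16.9 and 32.5 in DKO-severe 1 to 4. All 3 groups were separate for each of these genes. The DKO-severe log2 fold change was 3.23 ± 0.31 (SE, adjusted p = 1.22e-05) for Mki67, 2.90 ± 0.28 (SE, adjusted p = 1.32e-05) for Top2a and 2.70 ± 0.34 (SE, adjusted p = 6.16e-05) for Cdca2. In DKO-moderate the corresponding values were 1.48 ± 0.29 (SE, adjusted p = 0.00537), 1.42 ± 0.27 (SE, adjusted p = 0.00437) and 1.35 ± 0.33 (SE, adjusted p = 0.0159).

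Foxm1 and Mybl2 (B-Myb) encode transcription factors that drive G2 and M phase genes, and both were higher in each DKO group. Foxm1 (chr6:128362967-128376146, plus strand) was at 2.73, 4.19, 4.14 and 5.38 CPM in WT 1 to 4, 8.08, 9.3, 10.4 and 12.5 in DKO-moderate 1 to 4, and 26.4, 15.6, 21.9 and 39.5 in DKO-severe 1 to 4. Mybl2 (chr2:163054687-163084688, plus strand) was at 2.1, 2.1, 2.87 and 3.5 CPM in WT 1 to 4, 5, 5.61, 5.32 and 9.64 in DKO-moderate 1 to 4, and 26.6, 13.2, 21.4 and 32.4 in DKO-severe 1 to 4. No 2 groups overlapped in either gene. In DKO-severe they changed by 2.65 ± 0.29 (SE, adjusted p = 2.43e-05) for Foxm1 and 3.14 ± 0.32 (SE, adjusted p = 1.61e-05) for Mybl2, and in DKO-moderate by 1.29 ± 0.28 (SE, adjusted p = 0.00869) and 1.27 ± 0.30 (SE, adjusted p = 0.014).

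The sizes of the rise divided the 49 genes unevenly. Cenpa (1.26), Kif23 (1.34), Mad2l1 (1.40), Incenp (1.51) and Ndc80 (1.52) had the smallest DKO-severe log2 fold changes, and the next was Aurka at 2.18. On a per-length scale (FPKM, CPM per kilobase of exon), the mean WT levels of these 5 ranked 2, 10, 11, 1 and 16 among the 49. In WT the order by FPKM began with Incenp (5.81), Cenpa (4.80), Cdc20 (4.69), Ccnb2 (4.39) and Top2a (4.25), and ended with Anln (0.197). In DKO-severe it began with Ccnb2 (35.8), Top2a (31.7), Mki67 (29.8), Cdc20 (26.2) and Ccna2 (25.6), with Anln (1.73) again last. The medians of the 11 roles lay between 2.76 (centromere and kinetochore) and 3.26 (spindle-associated proteins), whereas the genes of the first of these alone ran from 1.26 to 3.40. Over the 40 genes with a promoter window, the median DKO-severe log2 fold change was 3.00 in the 27 with TTTGAA near the start and 3.14 in the 13 without. Of the 5 genes with the smallest changes, Cenpa, Kif23 and Ndc80 held it there, Mad2l1 had none in its window and Incenp had no window.

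DKO-severe exceeded DKO-moderate in all 49 genes (edgeR, adjusted p between 0.00332 and 0.0483), where 9.41% of all genes tested were higher. The median log2 difference was 1.38, from 0.61 for Cenpa to 1.89 for Anln, against -0.03 over all genes. Only 28 of the 49 were free of overlap between the 2 groups, against 9.77% of all genes tested. In each of the other 21, it was DKO-severe 2, the lowest of its group in all 49 genes, that lay below DKO-moderate 4, the highest of its group in 46. Over all 49, DKO-severe 2 was above DKO-moderate 4 in 28 genes, with a median ratio of CPM of 1.03 that ran from 0.721 (Birc5) to 1.95 (Mki67). For Racgap1 the log2 difference was 1.32 ± 0.19 (SE, adjusted p = 0.00332), for Cenpe 1.68 ± 0.25 (SE, adjusted p = 0.00344) and for Mybl2 1.87 ± 0.30 (SE, adjusted p = 0.00402). Birc5 had the largest adjusted p, at 1.06 ± 0.35 (SE, adjusted p = 0.0483). As the share of the DKO-severe log2 fold change, the DKO-moderate one came to a median of 51.8%, between 17.8% for Kif23 and 64.6% for Kif15. This comparison depended on the samples and terms of the fit. Without DKO-moderate 1, 32 of the 49 passed, where 4.78% of all genes tested were higher. With terms for neutrophil and B cell markers, 1 passed (Cenpe) while the median log2 difference was 1.82, and with a term for plasma cell markers, 0 passed by edgeR, with 41 at an unadjusted p under 0.05 and a median of 1.22. Under those 2 fits 0.592% and 0% of all genes tested were higher.

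Within each group, the library with the highest level was the same for nearly all of the genes. The CPM of the 49 summed to 319, 308, 361 and 490 in WT 1 to 4, to 756, 815, 973 and 1300 in DKO-moderate 1 to 4, and to 2645, 1491, 2168 and 3769 in DKO-severe 1 to 4. The sums were thus separate between all 3 groups, with means of 370 ± 83.7, 961 ± 244 and 2518 ± 959 CPM (SD, n = 4), or 2.60 and 6.81 times the WT mean in DKO-moderate and DKO-severe. WT 4 was the highest WT library in all 49 genes. DKO-moderate 4 was the highest of its group in all but Cenpe, Mki67 and Racgap1, where DKO-moderate 3 was. DKO-severe 4 was the highest in all but Racgap1, where DKO-severe 1 was, and the ratio of DKO-severe 4 to DKO-severe 2 had a median of 2.71, from 1.70 (Cenpa) to 3.56 (Nuf2). The lowest library was DKO-severe 2 for all 49 genes and DKO-moderate 1 for 34, whereas in WT it was WT 2 for 25, WT 1 for 17 and WT 3 for 7. Genes that share a high or low library are not independent repeats of each other. Relative to the WT mean, the median gene lay at a log2 ratio of 2.23 in DKO-severe 2, 2.81 in DKO-severe 3, 3.15 in DKO-severe 1 and 3.67 in DKO-severe 4.

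**Figure D3:**
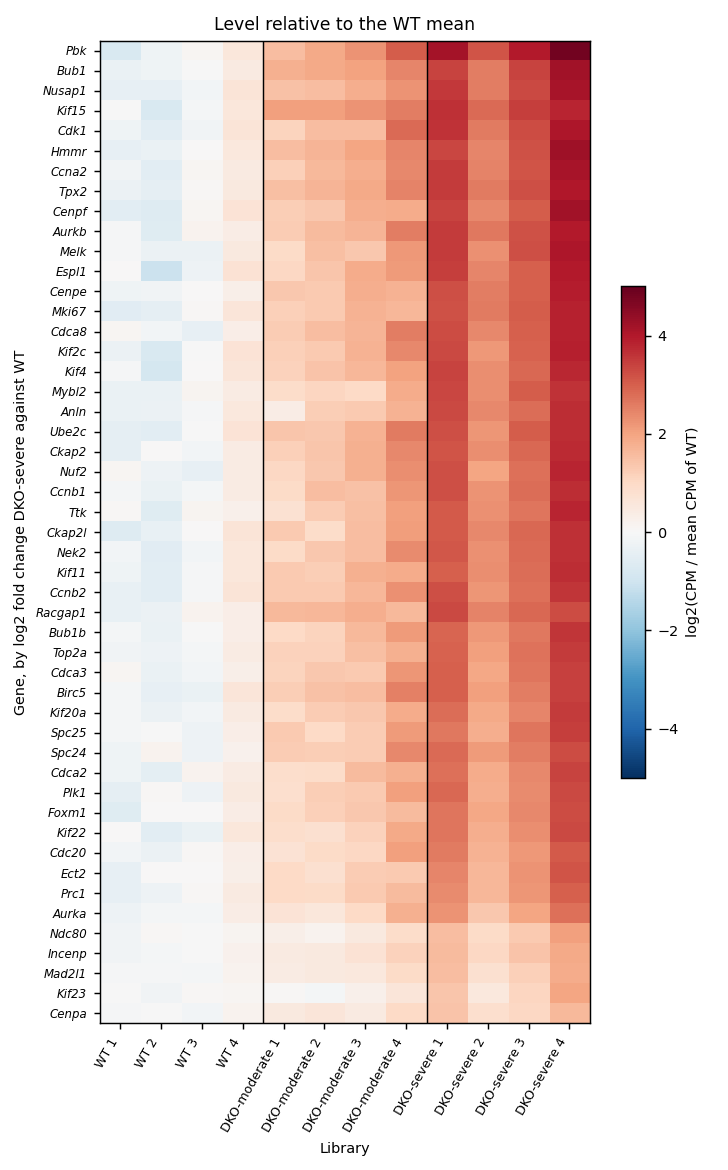
Log2 ratio of each gene's CPM to its WT mean (colour) for the 49 genes (vertical axis, ordered by their DKO-severe log2 fold change) in the 12 libraries (horizontal axis). Columns darken together, from a median of 1.13 in DKO-moderate 1 to 2.09 in DKO-moderate 4 and from 2.23 in DKO-severe 2 to 3.67 in DKO-severe 4, and the 5 rows from Ndc80 down are the genes with DKO-severe log2 fold changes of at most 1.52.

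Markers of other cell types also differed between the groups. Counts of markers called higher are for DKO-severe against WT unless stated, where 26.6% of all genes tested were higher. The counts for B cell, germinal centre B cell, and monocyte and macrophage markers were near or below that share. All 9 neutrophil markers exceeded their WT level in DKO-severe, and their sum was 2247, 825, 23.1 and 9.53 CPM in DKO-severe 1 to 4, against 0 to 2.10 in WT and 0.0266 to 3.69 in DKO-moderate. Against DKO-moderate all 9 were higher as well (9.41% of all genes tested), and Ly6g had no read in WT. Within DKO-severe, DKO-severe 4 had the lowest neutrophil marker sum and the highest sum of the 49 genes, 3769 CPM. DKO-severe 1 had the highest neutrophil marker sum and the next highest sum of the 49, 2645 CPM. Of the 6 plasma cell markers 3 were higher, with sums of 49.2 to 147 CPM in WT, 76.1 to 126 in DKO-moderate and 191 to 358 in DKO-severe. B cell markers summed to 6.81 to 212, 21.5 to 47.5 and 70.4 to 383 CPM, with 1 of 8 higher (Blk). Germinal centre B cell markers summed to at most 20.9 CPM in any library, with 1 of 4 higher (Mybl1) and Gcsam and Rgs13 without a read in DKO-moderate. Monocyte and macrophage markers, 1 of 7 higher, reached 64.6 to 361 CPM in DKO-severe and 4.57 to 181 in WT. Neutrophil precursor markers, 4 of 4 higher, summed to at most 12.5 CPM, and Elane and Ctsg had no read in WT. In DKO-moderate against WT, 3 of these 4 were higher too (12.3% of all genes tested). Their sums were 0.186, 4.63, 0.422 and 11.7 CPM in DKO-moderate 1 to 4. Erythroid genes, 3 of 7 higher, reached at most 48.0 CPM, while CD8 T cell and NK cell markers stayed at or below 26.7 and 7.04 CPM in every library. Without DKO-severe 1 and DKO-severe 2, all 49 genes still passed in DKO-severe against WT (edgeR, adjusted p at most 0.000358, median log2 fold change 3.36) and in DKO-severe against DKO-moderate (median 1.69). Leaving out WT 3 as well gave 49 and 48, the latter without Birc5. Of all genes tested, 23.55% were higher in DKO-severe against WT and 7.901% in DKO-severe against DKO-moderate without DKO-severe 1 and DKO-severe 2. With WT 3 left out as well, these shares were 23.39% and 7.498%. In DKO-moderate against WT, 42 of the 49 passed without WT 3 alone, where 11.1% of all genes tested were higher. Without WT 3, DKO-severe 1 and DKO-severe 2, 43 did (11.8% of all genes tested). With a term for plasma cell markers, 47 of the 49 passed in DKO-severe against WT, all but Aurka and Kif23. With terms for neutrophil and B cell markers, 49 did. Under these 2 fits 8.43% and 14.3% of all genes tested were higher in that comparison. The part of neutrophils, plasma cells and B cells in these results was not tested beyond these fits.

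**Figure D4:**
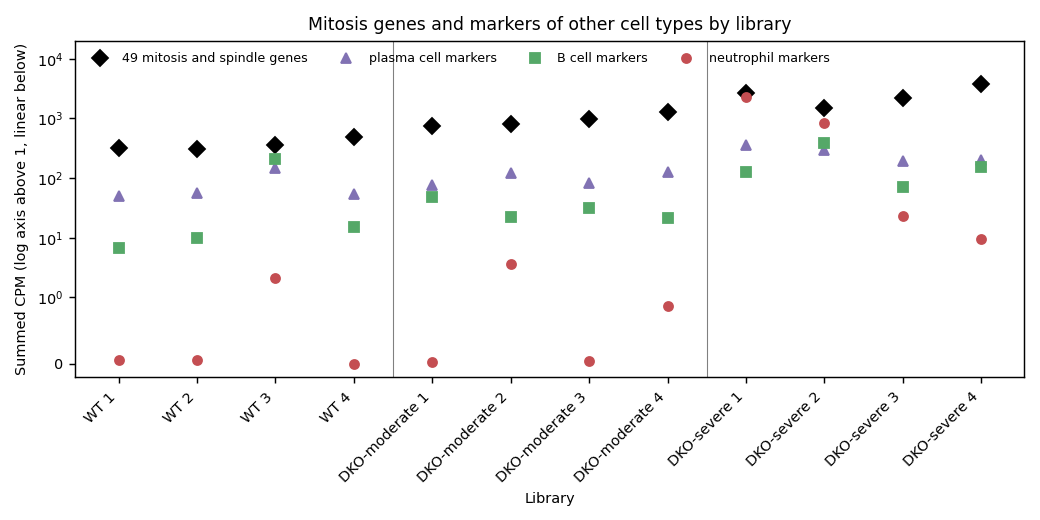
Summed CPM (vertical axis, log above 1 and linear below) of the 49 genes and of the plasma cell, B cell and neutrophil markers in each of the 12 libraries (horizontal axis). The 49 genes rise from at most 490 in WT to at least 1491 in DKO-severe, while the neutrophil markers reach 2247 in DKO-severe 1 and 9.53 in DKO-severe 4.

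Other genes of mitosis, from 7 lists, put the 49 in context. Of these 100 genes, 54 were higher and 10 lower in DKO-severe against WT (edgeR), where 26.6 and 25.9% of all genes tested were, with a median log2 fold change of 0.72. In DKO-moderate 35 were higher and 3 lower, against 12.3 and 4.74% of all genes. Other spindle and cytokinesis genes resembled the 49 most, with 16 of 18 higher and a median of 2.48. Iqgap3, a scaffold protein of dividing cells, had the largest change, 4.61 ± 0.48 (SE, adjusted p = 1.74e-05), from 0.7 ± 0.199 to 17.2 ± 9.71 CPM (SD, n = 4). The minus-end motor gene Kifc1 was at 32.8 ± 4.86 CPM in WT and 32 ± 7.6 in DKO-severe, a difference of -0.04 ± 0.17 (SE, adjusted p = 0.873). Of 29 other kinetochore and centromere genes 21 were higher and 1 lower, with a median of 1.22. Ska1, a microtubule-binding protein of the kinetochore, changed by 3.49 ± 0.36 (SE, adjusted p = 1.78e-05), and Zw10, of the dynein-recruiting complex, by -0.30 ± 0.11 (SE, adjusted p = 0.0321). Of 12 regulators of mitotic entry and exit 9 were higher and 2 lower. Cdc25c, the phosphatase that activates CDK1, changed by 3.43 ± 0.45 (SE, adjusted p = 7.88e-05), whereas Pttg1 (securin, the inhibitor of separase) changed by -0.58 ± 0.14 (SE, adjusted p = 0.00443), from 37.6 ± 5.47 to 25.2 ± 3.67 CPM, and Pkmyt1, a kinase that holds CDK1 inactive, by -0.30 ± 0.09 (SE, adjusted p = 0.0186).

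Further lists were those of condensin, cohesin and the anaphase-promoting complex, read here against the 26.6% of all genes tested that were higher in DKO-severe and the 25.9% that were lower. In condensin, 5 of 8 genes were higher and 1 lower, with a median of 1.39. Ncapg, a subunit of condensin I, changed by 3.17 ± 0.28 (SE, adjusted p = 8.28e-06), and Smc4, a core subunit shared by both condensins, by -1.12 ± 0.14 (SE, adjusted p = 5.63e-05), from 677 ± 56.6 CPM in WT through 448 ± 85.8 to 312 ± 37.1. Of 10 cohesin genes 2 were higher and 3 lower, with a median of -0.13. Cdca5 (sororin), which protects cohesin until mitosis, changed by 3.17 ± 0.42 (SE, adjusted p = 7.7e-05) and the cohesin regulator Pds5a by -0.49 ± 0.19 (SE, adjusted p = 0.0435). Of the 14 core subunits of the anaphase-promoting complex, 3 were lower in DKO-severe (edgeR) and the others did not pass the threshold, with a median of -0.10. Their ends were Anapc15 at 0.26 ± 0.19 (SE, adjusted p = 0.271) and Anapc5 at -0.44 ± 0.10 (SE, adjusted p = 0.0038). The activator and enzyme of that complex, Cdc20 and Ube2c, are among the 49. Of 9 genes of the MuvB and DREAM complexes, which bind CHR elements, 1 was higher, Tfdp1, which went from 49.4 ± 4.88 to 98.5 ± 14 CPM (adjusted p = 1.95e-05), and Lin9 was at the other end with -0.27 ± 0.15 (SE, adjusted p = 0.135). Of 25 DNA replication genes 22 were higher, with a median of 1.60, Mcm10 at 3.38 ± 0.38 (SE, adjusted p = 2.9e-05) and Gins4 at -0.12 ± 0.10 (SE, adjusted p = 0.301) marking the ends. TTTGAA within 50 bases of the start was in 5.72% of all genes with a window. Among the other mitosis genes, it was in 20 of 47 windows (42.6%) of those higher in DKO-severe. It was in 4 of 32 (12.5%) of those not past the threshold and in 0 of 6 of those that were lower. Windows of anaphase-promoting complex subunits held it in 0 of 13. Those of DNA replication genes, most of which were higher, held it in 2 of 19 (10.5%). At the share over all genes, lists of 6 or 13 windows would often hold no match, so little can be read from the counts of 0. The lists were chosen with earlier results known, and the genes were split by their calls in these same data. The differences between these shares were not tested.

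**Figure D5:**
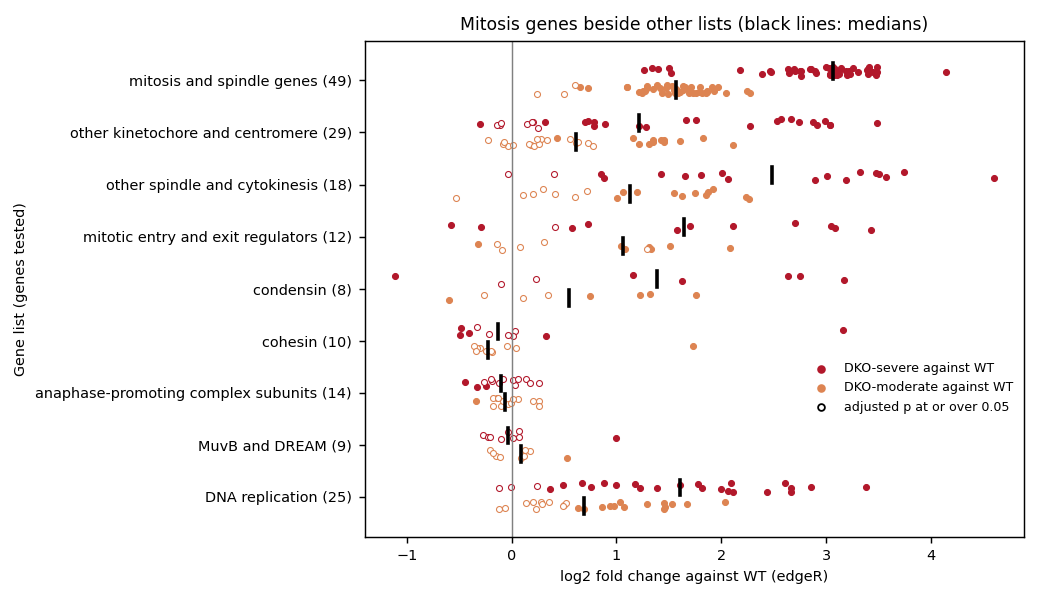
Log2 fold change against WT (horizontal axis, edgeR) of single genes in 9 lists (vertical axis, with the number tested), DKO-severe above and DKO-moderate below within each list, open where the adjusted p was 0.05 or more, with black lines at the medians. In DKO-severe the median is 3.07 for the 49 mitosis and spindle genes, 2.48 for other spindle and cytokinesis genes and -0.10 for subunits of the anaphase-promoting complex.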

How the data were processed

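RNA of sorted CD4+ YFP(FOXP3)- T cells from 12 mice (4 per group) was measured. The authors made stranded libraries and mapped the reads with STAR 2.7.11 (mm10), after which HTSeq assigned reads of unique position to genes. The deposited values are raw counts, 1 table per library, and the annotation behind them is not given in the sources used here. The 5 records of each table that name no gene stayed out of library sizes and tests. Genes were kept where the libraries of some condition held 10 reads or more between them, all 12 libraries were fitted together with edgeR 4.0.16 (R 4.3.3, TMM, quasi-likelihood F test, two-sided), and p-values were Benjamini-Hochberg adjusted over all 16035 genes, with a threshold of 0.05. The design had been written with this test, although the study's methods name DESeq2, which served as an alternative. Each SE equals the log2 fold change over the root of F. CPM carry TMM factors, and FPKM divide them by the union exon length in GENCODE vM21, whose GRCm38 coordinates are given. At these depths, members had 26 reads or more in every library. Scripts were tested on simulated data. Exact permutation tests of CPM (two-sided, 4 against 4) cannot go below p = 0.029. They gave 0.029 for 49 members in DKO-severe against WT, for 47 in DKO-moderate against WT (0.057 for Anln and 0.23 for Kif23) and for 28 in DKO-severe against DKO-moderate (0.057 for the other 21), unadjusted. No pair of libraries agreed within counting noise.

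Members, lists and the rule for genes given by library (in each role the largest and smallest DKO-severe change, Mki67, Top2a, Ccnb1, Cdk1, and the 6 smallest adjusted p-values between the DKO groups, and from each list the largest and smallest change) were chosen with earlier results of these data known. Ndc80 was added for its value. Where other genes are named from a list, they were picked after their values were seen. Some genes were matched through older symbols. Exons of Foxm1 and Top2a overlap other annotated genes on the same strand, none of which is listed in the files. Alternatives were DESeq2 1.42.0, limma voom 3.58.1, other scaling and filters, marker terms, a term for Y-linked genes, the replicate number as a block and leaving out libraries. Each group had 1 library per mouse, and replicate numbers were not treated as pairs in the main fit.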

Additional observations from a re-analysis of the deposited data

Results flagged for a closer look

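Of 81 groups of 4 libraries, for 26 genes given by library and for the sum of the 49, 5 held a library far from the other 3 by Dixon's test, which chance gives in about 1 in 20 groups, and all 5 were in DKO-moderate. DKO-moderate 4 stood above the rest of its group for Cdk1 at 26.4 CPM, for Mad2l1 at 31.1 CPM, for Cdc20 at 35.9 CPM and for Mybl2 at 9.64 CPM. DKO-moderate 3 stood above the rest for Racgap1 at 74.7 CPM. Without DKO-moderate 4, 41 of the 49 genes were higher in DKO-moderate than in WT (edgeR), with a median log2 fold change of 1.29. Without DKO-moderate 3, 46 were. Of all genes tested, 10.6% were higher without DKO-moderate 4 and 12.4% without DKO-moderate 3, against 12.3% in the main fit.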

How the results depend on the processing

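In DKO-severe against WT, 49 of 49 genes passed under every alternative but the term for plasma cell markers (47), and the median log2 fold change stayed between 2.75 and 3.42, with 2.81 to 3.27 when 1 library was left out. In DKO-moderate against WT, the count was 46, with 37 to 47 when 1 library was left out (lowest without WT 1), 37 with the plasma cell term, 43 with limma voom and 26 at an adjusted p under 0.01, and the median was 1.29 to 1.77 without 1 library. In DKO-severe against DKO-moderate, the count was 49, with 32 (without DKO-moderate 1) to 49 when 1 library was left out, 42 with only the libraries compared, 21 at an adjusted p under 0.01, 1 with terms for neutrophil and B cell markers and 0 with the plasma cell term, and the median was 1.13 to 1.66 without 1 library. Over all genes tested, 12.3% were higher in DKO-moderate against WT in the main fit. That share was 8.24% without WT 1, 8.47% with the plasma cell term and 13.1% with limma voom. In DKO-severe against DKO-moderate it was 9.41% in the main fit, 4.78% without DKO-moderate 1 and 7.76% with only the libraries compared. It was 0.592% there with the neutrophil and B cell terms and 0% with the plasma cell term. The marker terms take up differences that the markers share with the groups, and the cause of these losses was not tested. With a term for Y-linked genes, 49, 44 and 48 genes passed in the 3 comparisons, where 26.3, 10.1 and 9.30% of all genes tested were higher. The calls lost were those of Anln and Aurka in DKO-moderate against WT and of Birc5 in DKO-severe against DKO-moderate. No gene reversed its direction in any comparison under any alternative. With no scaling beyond library size, the median of all genes in DKO-severe against WT moved to 0.18 and the genes higher and lower from 4270 and 4158 to 5460 and 2756, while all 49 still passed, with a median of 3.25. Deviations of same-numbered libraries of different groups had a median correlation of -0.03, against 0.01 for libraries with different numbers. Such correlations cannot settle whether the numbers are pairs, which the labels do not say. With the replicate block 49, 47 and 49 genes passed in the 3 comparisons, where 24.22, 10.45 and 6.82% of all genes tested were higher. Fits without the libraries that stood apart were added after seeing the data. With 4 mice per group, the spread between mice and not the depth sets the precision.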
